A study of Mus musculus with 12 samples.

Results

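The Vbeta8 family of mouse T cell receptor beta chains was followed in T cell receptor (TCR) libraries of tumour-infiltrating leukocytes. Its members were chosen by the name of the V segment alone, as every beta chain (TRB) that the deposited annotation assigns to TRBV13-1, TRBV13-2 or TRBV13-3, or jointly to TRBV12-2 and TRBV13-2. They made up 5274 of 24619 beta chains, 4392 of 19115 T cells with a usable pair of chains and 2522 of 10615 distinct clonotypes. A clonotype here is the set of cells of 1 library with the same beta chain, to the base, and a shared alpha chain (TRA). The cells came from tumours that LNP-P20-mAb or LNP-Ctrl had been injected into, with 3 TCR libraries per treatment. The tumours were grown under the skin of C57BL/6J mice, 6 to 8 weeks old, from MC38-p53KO, a p53-knockout derivative of a mouse colon carcinoma line, which carries a p53 substitution that the labels write in conflicting ways. All mice had the same tumour line, and each tumour received a single dose of 40 µg on day 10. CD45+ cells, the leukocytes, were sorted and about 10000 per sample went into droplet-based single-cell libraries. The study asked how tumour-infiltrating T and NK cells differ between the treatments. Nothing in the labels states that each library is a separate animal, so a p-value here speaks only of the scatter among libraries, part of which may be technical.

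A T cell recognises peptides bound to MHC proteins with a receptor made of an alpha and a beta chain. The beta chain is assembled from a V, a D and a J segment, and bases are trimmed and added at the joints. The first and second complementarity-determining loops (CDR1 and CDR2) are encoded in the V segment, while the third loop (CDR3) spans the joints and differs from clone to clone. The Vbeta8 segments are among the most used in C57BL/6 mice and are bound by the widely used antibody F23.1 and by bacterial superantigens. TRBV13-2 is also the segment that prevails among the beta chains of mouse invariant natural killer T (iNKT) cells.

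In the RefSeq annotation the segments lie on chromosome 6 in the order Trbv12-1, Trbv13-1, Trbv12-2, Trbv13-2, the pseudogene Trbv12-3 and Trbv13-3, so that the Vbeta8 and the Vbeta5 (TRBV12) segments alternate. The deposited chains gave the loops that tell the members apart, shown here because every later result rests on these names. The CDR1 was NSHNY in TRBV13-1, NNHNN in TRBV13-2 and NNHDY in TRBV13-3, and the CDR2 was SYGAGN, SYGAGS and SYVADS in the same order. The bases of both loops follow, with capitals where the segments differ.
TRBV13-1 CDR1: aataGccaCAacTaC
TRBV13-2 CDR1: aataAccaCAacAaC
TRBV13-3 CDR1: aataAccaTGacTaT
TRBV13-1 CDR2: tcatatgGTgctgGcaAc
TRBV13-2 CDR2: tcatatgGTgctgGcaGc
TRBV13-3 CDR2: tcatatgTCgctgAcaGc
Over the 270 bases before the CDR3 that the most frequent chain of each name carries, TRBV13-2 and TRBV13-3 were identical at 91.5% of bases, TRBV13-1 and TRBV13-2 at 88.1%, and TRBV13-1 and TRBV13-3 at 84.8%. All 1999 chains named TRBV13-1 and all 1451 named TRBV13-3 had the loops given for them.

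The joint name covered most TRBV13-2 receptors. It was given to 1665 chains, and TRBV13-2 alone to 159. Of the jointly named chains 99.9% carried NNHNN and SYGAGS, the loops of TRBV13-2, as did all 159 chains with the single name, and both names had the same 270 bases. Joint names were therefore read as TRBV13-2. Among cells, 137 of 1567 carried the single name, at 5.60%, 5.63% and 4.67% of TRBV13-2 cells in LNP-P20-mAb 1, 2 and 3, against 5.58%, 10.0% and 13.9% in LNP-Ctrl 1, 2 and 3. Both names occurred within 9 of 67 TRBV13-2 clonotypes of 2 or more cells. Chains with the single name were shorter, with a median of 541 assembled bases against 567, and had fewer unique molecular identifiers (UMIs, counts of distinct mRNA molecules) than jointly named ones in every library, for instance a median of 4 against 18.5 in LNP-P20-mAb 1.

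The libraries held 2016 to 3263 paired cells under LNP-P20-mAb and 3333 to 3923 under LNP-Ctrl, in 399 to 1353 and 1799 to 3416 clonotypes, with 85835 to 136311 and 110107 to 145847 UMIs over all chains. A count of 0 cells in the smallest library allows a share of up to 0.149%. LNP-P20-mAb 1 and 2 carried many of the same clones, to the base in both chains. These shared clonotypes numbered 20 for TRBV13-1, 7 for TRBV13-2 and 11 for TRBV13-3, and held 92.9% and 89.7% of the TRBV13-1 cells of LNP-P20-mAb 1 and 2, 55.2% and 64.8% of their TRBV13-2 cells, and 84.7% and 82.2% of their TRBV13-3 cells. These 2 libraries are therefore not independent samples, and counts over 6 libraries and over 3 LNP-P20-mAb libraries include both. Values stated as pooled take the pair as 1 library. Of 23219 cell barcodes, 298 barcode sequences occurred in more than 1 library, at 11 to 29 per pair of libraries. All binomial intervals below are 95% exact Clopper-Pearson intervals and, like the limits at a count of 0, cover counting error only.

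As a family, the Vbeta8 receptors averaged a like share of T cells under both treatments, while the shares of its members differed in size. The family share averaged 23% ± 4.76 under LNP-P20-mAb and 23% ± 0.70 under LNP-Ctrl (SD, n = 3 each). By library it was 26.6%, 24.8% and 17.6% in LNP-P20-mAb 1, 2 and 3, against 23.8%, 22.7% and 22.4% in LNP-Ctrl 1, 2 and 3. LNP-P20-mAb 1 and 2, which share clones, lay above the LNP-Ctrl libraries and LNP-P20-mAb 3 below them. Within the family, TRBV13-1 held 12.3% ± 5.14 of T cells under LNP-P20-mAb and 5.76% ± 1.00 under LNP-Ctrl. TRBV13-2 held 4.21% ± 0.94 and 11.2% ± 1.11, and TRBV13-3 held 6.53% ± 0.62 and 6.06% ± 0.64, in the same order of treatments. TRBV13-2 was thus the most frequent member in each LNP-Ctrl library and the least frequent in each LNP-P20-mAb library.

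**Figure D1:**
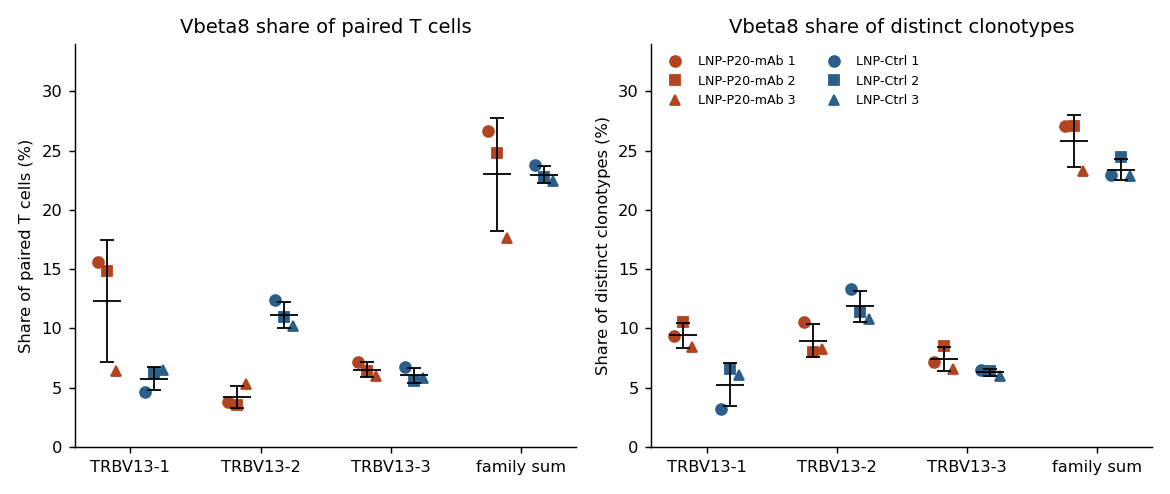
Share of paired T cells (left) and of distinct clonotypes (right), in percent, that carry each Vbeta8 segment or any of them (family sum), with 1 point per library, LNP-P20-mAb left of LNP-Ctrl, and black marks for the mean ± SD over 3 libraries. The TRBV13-2 shares of cells lie at 3.52% to 5.28% in LNP-P20-mAb libraries, all below the 10.2% to 12.4% of LNP-Ctrl libraries. The family sums of cells in LNP-P20-mAb libraries lie on both sides of those in LNP-Ctrl libraries.

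By library, TRBV13-2 cells were 3.83%, 3.52% and 5.28% of the T cells of LNP-P20-mAb 1, 2 and 3, against 12.4%, 10.9% and 10.2% in LNP-Ctrl 1, 2 and 3. The 2 treatments did not overlap, and the difference of -6.95 percentage points had a two-sided exact permutation p = 0.1, the smallest that 3 against 3 libraries can give (adjusted p = 0.375 over 15 such tests). With LNP-P20-mAb 1 and 2 pooled the difference was -6.66 points (exact permutation p = 0.1, adjusted p = 0.643). TRBV13-1 cells were 15.6%, 14.9% and 6.37% in LNP-P20-mAb 1, 2 and 3, against 4.62%, 6.22% and 6.45% in LNP-Ctrl 1, 2 and 3. LNP-P20-mAb 1 and 2, which share clones, stood high, and LNP-P20-mAb 3 lay within the range of the LNP-Ctrl libraries (exact permutation p = 0.2). The difference was 6.52 points, and 5.08 points with LNP-P20-mAb 1 and 2 pooled (exact permutation p = 0.2 each). TRBV13-3 cells ranged from 5.98% to 7.20% under LNP-P20-mAb and from 5.58% to 6.78% under LNP-Ctrl, and the treatments overlapped. These are shares of recovered receptors, and fewer cells of a kind cannot be told apart from fewer recovered chains per cell.

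The portion of these shares held by large clones, those of 20 or more cells, differed between the members. Shares without such clones are given here of all paired cells of a library, large clones of every segment included. Outside the family, large clones held 73.6%, 64.6% and 38.0% of cells in LNP-P20-mAb 1, 2 and 3, against 29.9%, 13.1% and 1.76% in LNP-Ctrl 1, 2 and 3. Less of a library is thus left to smaller clonotypes of any segment under LNP-P20-mAb. Without such clones, TRBV13-1 cells were 4.75% ± 1.48 of a library under LNP-P20-mAb and 4.67% ± 2.42 under LNP-Ctrl (SD, n = 3 each). TRBV13-2 cells outside large clones were 3.38% ± 1.65 and 9.58% ± 0.58, with 2.33% to 5.28% in LNP-P20-mAb libraries and 9.00% to 10.2% in LNP-Ctrl libraries, which again did not overlap. TRBV13-3 cells outside large clones were 3.48% ± 0.64 under LNP-P20-mAb and 5.10% ± 1.04 under LNP-Ctrl. Large clones of other segments lower these shares, so they cannot show which treatment had more of a segment among smaller clonotypes. Among single-cell clonotypes, TRBV13-3 made up 6.68%, 8.52% and 6.45% under LNP-P20-mAb, against 6.44%, 6.45% and 6.01% under LNP-Ctrl, by library number. In the same order TRBV13-2 made up 10.9%, 8.85% and 8.48%, against 13.6%, 11.6% and 11.1%. TRBV13-1 made up 7.57%, 7.87% and 7.89%, against 3.16%, 6.45% and 5.98%.

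With every clonotype counted once, so that clone size does not enter, TRBV13-1 was more frequent among LNP-P20-mAb receptors. It was used by 9.32%, 10.5% and 8.43% of clonotypes in LNP-P20-mAb 1, 2 and 3, against 3.17%, 6.57% and 6.03% in LNP-Ctrl 1, 2 and 3, without overlap. Its log2 difference was 0.76 ± 0.20 (SE) with an edgeR adjusted p = 0.0227, in a quasi-likelihood fit over 150 V and J segments of both chains. That fit called 7 segments, or 4.67%, at an adjusted p below 0.05, and 1 of the 3 Vbeta8 segments. The median log2 difference was 0.20 over the 3 members and -0.05 over all 150 segments. TRBV13-2 was used by 10.6%, 8.02% and 8.28% of clonotypes in LNP-P20-mAb 1, 2 and 3, against 13.3%, 11.4% and 10.8% in LNP-Ctrl 1, 2 and 3, also without overlap. Its log2 difference of -0.41 ± 0.14 did not pass the test (edgeR adjusted p = 0.106), nor did -0.38 with LNP-P20-mAb 1 and 2 pooled (edgeR adjusted p = 0.182). For TRBV13-3 the shares were 7.17%, 8.52% and 6.58% in LNP-P20-mAb 1, 2 and 3, against 6.45%, 6.44% and 5.97% in LNP-Ctrl 1, 2 and 3. Its log2 difference was 0.20 ± 0.14 (edgeR adjusted p = 0.467). The call of TRBV13-1 was lost with LNP-P20-mAb 1 and 2 pooled (log2 0.67, edgeR adjusted p = 0.0718), without LNP-P20-mAb 1 (0.76, edgeR adjusted p = 0.105), without LNP-Ctrl 3 (0.85, edgeR adjusted p = 0.109) and with DESeq2 (0.88, adjusted p = 0.0907).

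Neighbouring and related segments are given as values. TRBV12-2, the Vbeta5 segment between TRBV13-1 and TRBV13-2 in the locus, was used by 8.78%, 8.77% and 9.98% of clonotypes in LNP-P20-mAb 1, 2 and 3, against 3.78%, 5.24% and 4.04% in LNP-Ctrl 1, 2 and 3 (log2 1.09 ± 0.15, edgeR adjusted p = 3.33e-05). By cells it held 2.11%, 2.53% and 5.80% of LNP-P20-mAb 1, 2 and 3. The LNP-Ctrl libraries had 6.24%, 4.46% and 3.88% of cells with it, in the order of their numbers. TRBV12-1, on the other side of TRBV13-1, had a log2 difference of 0.50 ± 0.18 (edgeR adjusted p = 0.133). TRBV1 and TRBV29, the other beta segments that mouse iNKT cells favour, had log2 differences of -0.37 ± 0.19 and 0.26 ± 0.20 (edgeR adjusted p = 0.303 and 0.516). By cells TRBV1 held 10.8%, 11.3% and 4.78% of LNP-P20-mAb 1, 2 and 3. The LNP-Ctrl libraries had 3.93%, 4.79% and 4.84% of cells with TRBV1, in the order of their numbers.

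In every library a smaller share of TRBV13-2 cells than of the cells with any TRBV outside the family was in clones of 2 or more cells. Clonotypes of 2 or more cells held 60.8%, 62.0% and 33.3% of TRBV13-2 cells in LNP-P20-mAb 1, 2 and 3, against 86.0%, 85.0% and 61.1% of the cells with a TRBV outside the family in the same libraries. In LNP-Ctrl 1, 2 and 3 they held 45.6%, 21.9% and 4.21% of TRBV13-2 cells, against 50.2%, 27.7% and 12.6% of the cells outside the family. The share was lower for TRBV13-2 in 6 of 6 libraries, with a mean difference of -15.8 ± 10.6 percentage points (SD, n = 6; exact sign-flip permutation p = 0.03125, the smallest that 64 flips give). No test of this kind passed adjustment over the 27 that were made (adjusted p = 0.121). With LNP-P20-mAb 1 and 2 pooled the mean difference was -14.1 points (exact permutation p = 0.0625, the smallest that 5 libraries can give, adjusted p = 0.211). The difference was -25.2, -23 and -27.8 points in LNP-P20-mAb 1, 2 and 3, and -4.59, -5.84 and -8.35 points in LNP-Ctrl 1, 2 and 3. That it was larger under LNP-P20-mAb was noticed in the values and not tested. TRBV13-2 clonotypes held 1.61 ± 0.49 cells on average and those outside the family 2.93 ± 2.08, again lower in 6 of 6 libraries (exact permutation p = 0.03125, adjusted p = 0.121). Clones of 20 or more cells held 17.8% ± 16.2 of TRBV13-2 cells and 36.8% ± 28.2 of the cells outside the family, with the same direction in 6 of 6 libraries and the same p-values. Pooling the pair gave differences of -1.04 cells per clonotype and -14.2 points for large clones (exact permutation p = 0.0625 and adjusted p = 0.211 each), and leaving out LNP-P20-mAb 1 gave -0.836 cells per clonotype against -1.32 with it.

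**Figure D2:**
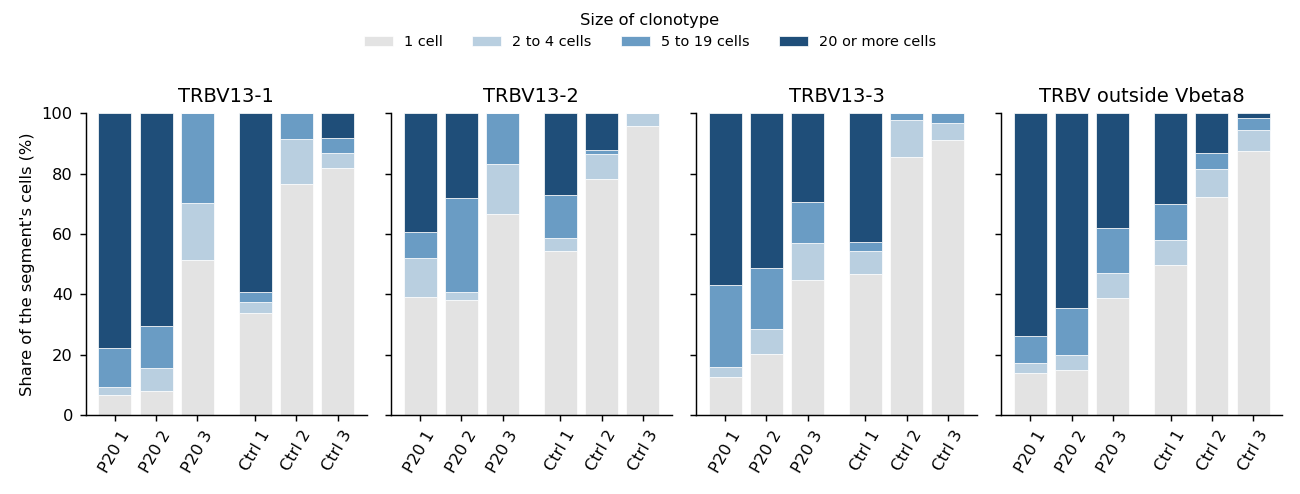
Share of the cells of each Vbeta8 segment, and of cells with a TRBV outside the family, by size of their clonotype, in percent of that segment's cells, with 1 bar per library (P20 stands for LNP-P20-mAb, Ctrl for LNP-Ctrl). Single-cell clonotypes hold more of the TRBV13-2 cells than of the cells outside the family in each of the 6 libraries, for instance 66.7% against 38.9% in LNP-P20-mAb 3.

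TRBV13-1 and TRBV13-3 had no such uniform direction. Clonotypes of 2 or more cells held 93.3%, 92.0% and 48.6% of TRBV13-1 cells in LNP-P20-mAb 1, 2 and 3, against 66.2%, 23.4% and 18.3% in LNP-Ctrl 1, 2 and 3. This was above the cells outside the family in 4 of 6 libraries, by 3.20 ± 10.1 points on average (exact permutation p = 0.4375). TRBV13-3 cells were in such clonotypes at 87.2%, 79.8% and 55.3% in LNP-P20-mAb 1, 2 and 3 and at 53.1%, 14.6% and 8.76% in LNP-Ctrl 1, 2 and 3, below the cells outside the family in 4 of 6 libraries, with a difference of -3.96 ± 5.71 points (exact permutation p = 0.15625). With every library thinned to 2016 cells, these clonotypes held 73.0% ± 17.8 of TRBV13-3 cells under LNP-P20-mAb and 22.7% ± 24.6 under LNP-Ctrl, without overlap (exact permutation p = 0.1, adjusted p = 0.375, and exact permutation p = 0.2 with LNP-P20-mAb 1 and 2 pooled). On the same scale they held 76.4% ± 27.3 and 33.0% ± 27.5 of TRBV13-1 cells, and 50.0% ± 16.4 and 21.8% ± 20.7 of TRBV13-2 cells (exact permutation p = 0.2 each). Without thinning, the treatments did not overlap for the cells outside the family either. Such clonotypes held 86.0%, 85.0% and 61.1% of them under LNP-P20-mAb, against 50.2%, 27.7% and 12.6% under LNP-Ctrl, by library number. The lack of overlap was thus not particular to TRBV13-3. Whether TRBV13-3 differed more than those cells was not tested.

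Among expanded receptors, those of 3 or more cells, TRBV13-1 made up 11.5% ± 7.07, against 6.49% ± 1.81 among single-cell clonotypes (SD, n = 6), and was higher in 5 of 6 libraries. Its log2 difference within libraries was 0.75 ± 0.22 and did not pass the test (edgeR adjusted p = 0.0521), in a fit that called 2 of 150 segments, or 1.33%, and none of the 3 Vbeta8 segments. TRBV13-2 made up 7.39% ± 1.58 of the expanded receptors and 10.7% ± 1.88 of the single-cell ones, lower in 6 of 6 libraries, with a log2 difference of -0.51 ± 0.22 (edgeR adjusted p = 0.241). Related segments had estimates further below 0, which did not pass either, with -0.87 ± 0.30 for TRBV12-2, -0.70 ± 0.29 for TRBV12-1 and -0.66 ± 0.34 for TRBV29 (edgeR adjusted p = 0.121, 0.203 and 0.312), and TRBV1 had 0.65 ± 0.30 (edgeR adjusted p = 0.241). TRBV13-3 made up 7.84% ± 2.02 and 6.76% ± 0.89, a log2 difference of 0.18 ± 0.25 (edgeR adjusted p = 0.820), whose sign turned with TMM scaling (-0.10) and DESeq2 (-0.15). The median log2 difference was 0.18 over the 3 members and -0.19 over all 150 segments. TRBV13-1 passed the test where expanded meant 2 or more cells (log2 0.65, edgeR adjusted p = 0.0150), without LNP-Ctrl 1 (0.84, edgeR adjusted p = 0.030) and without LNP-Ctrl 3 (0.79, edgeR adjusted p = 0.0414). With LNP-P20-mAb 1 and 2 pooled the estimate was 0.66 for TRBV13-1 and -0.53 for TRBV13-2 (edgeR adjusted p = 0.310 each). TRBV13-2 passed the test with TMM scaling (-0.80, edgeR adjusted p = 0.0278) and with DESeq2 (-0.85, adjusted p = 0.0313). Whether the relation to expansion differed between treatments was tested as an interaction in edgeR, which called none of 150 segments (3 below an unadjusted p of 0.05). The interaction estimates were 0.73 ± 0.47 for TRBV13-1, 0.12 ± 0.50 for TRBV13-2 and 0.27 ± 0.51 for TRBV13-3.

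The largest Vbeta8 clone of the series counted 253 cells, or 7.75% (interval 6.86% to 8.72%), of LNP-P20-mAb 1, and 137 cells, or 6.80% (5.74% to 7.98%), of LNP-P20-mAb 2. It joined TRBV13-1 and TRBJ2-7 with a CDR3 of 14 residues to TRAV12N-2 and TRAJ4 with the CDR3 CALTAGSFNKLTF, and held 49.7% and 45.7% of the TRBV13-1 cells of those libraries. A second TRBV13-1 clone of the pair, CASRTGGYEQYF with TRAV10N and TRAJ31, numbered 56 and 32. In LNP-Ctrl 1 the largest TRBV13-1 clone was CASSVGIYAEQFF with TRAV14D-3-DV8 and TRAJ28, at 91 cells or 59.1% of the segment's cells there. The largest TRBV13-1 clones of LNP-P20-mAb 3, LNP-Ctrl 2 and LNP-Ctrl 3 had 17, 13 and 20 cells.

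The largest TRBV13-2 clones were in LNP-Ctrl libraries. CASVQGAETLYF with TRAV7N-6 and TRAJ17 had 112 cells in LNP-Ctrl 1, or 3.36% (2.77% to 4.03%), and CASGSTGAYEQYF with TRAV9-1 and TRAJ6 had 53 cells in LNP-Ctrl 2, or 1.35% (1.01% to 1.76%). In LNP-P20-mAb 1 and 2 the largest was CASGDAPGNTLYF with TRAV7D-2 and TRAJ26, at 26 and 20 cells. The largest of LNP-P20-mAb 3 counted 11 cells, and that of LNP-Ctrl 3 counted 4. TRBV13-3 reached 50 or more cells in 3 libraries. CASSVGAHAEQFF with TRAV3N-3 and TRAJ15 counted 91 and 40 cells over LNP-P20-mAb 1 and 2. Clones with TRBJ2-4 and 15 residues counted 50 for LNP-P20-mAb 3 and 71 for LNP-Ctrl 1. In LNP-Ctrl 2 and 3 no TRBV13-3 clone exceeded 5 and 7 cells.

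**Figure D3:**
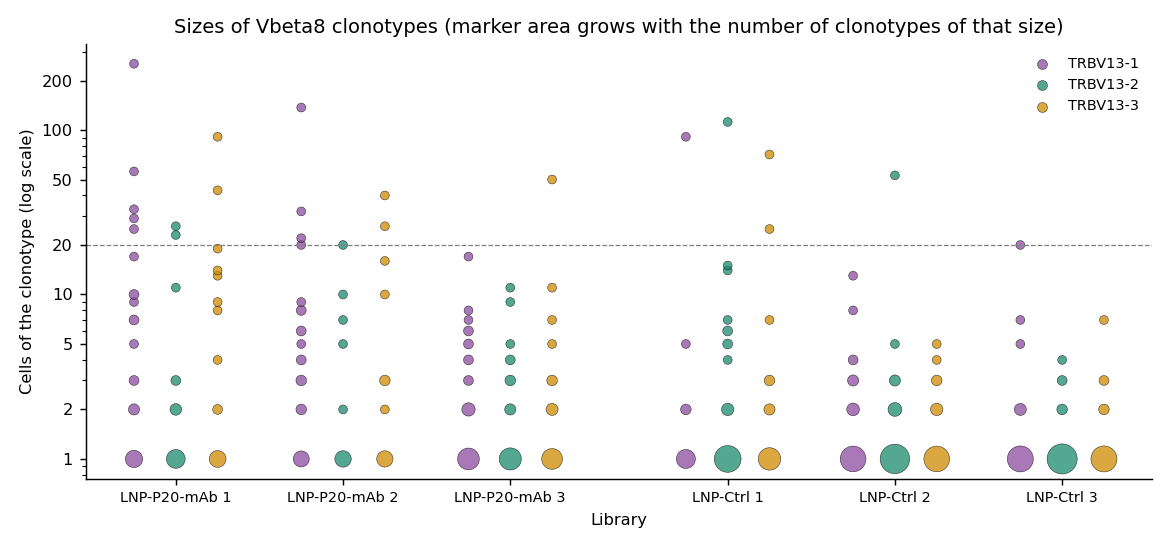
Sizes of all Vbeta8 clonotypes in cells (log scale) by library and segment, LNP-P20-mAb libraries to the left, with markers that grow with the number of clonotypes of that size and a dashed line at 20 cells. TRBV13-1 has the largest clonotypes of LNP-P20-mAb 1 and 2 (253 and 137 cells), and TRBV13-2 those of LNP-Ctrl 1 and 2 (112 and 53 cells).

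The CDR3 of these clones is shown to tell which part comes from the V and J segments. Bases in capitals are outside the ends that these segments give to the CDR3. Those ends were read as the consensus of the receptors themselves. D segments were not marked, so the capitals can include bases of a D segment as well as added bases.
TRBV13-1 clone of 253 cells: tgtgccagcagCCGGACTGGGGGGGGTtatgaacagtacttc
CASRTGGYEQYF of TRBV13-1: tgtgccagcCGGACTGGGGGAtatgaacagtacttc
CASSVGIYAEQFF of TRBV13-1: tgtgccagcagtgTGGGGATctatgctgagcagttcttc
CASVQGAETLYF of TRBV13-2: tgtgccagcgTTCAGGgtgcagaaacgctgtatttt
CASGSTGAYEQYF of TRBV13-2: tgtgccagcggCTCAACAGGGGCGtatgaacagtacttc
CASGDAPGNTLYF of TRBV13-2: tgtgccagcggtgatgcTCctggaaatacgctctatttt
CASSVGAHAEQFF of TRBV13-3: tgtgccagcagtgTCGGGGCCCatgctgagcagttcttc
TRBV13-3 clone of 50 cells: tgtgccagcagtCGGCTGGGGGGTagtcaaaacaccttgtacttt
TRBV13-3 clone of 71 cells: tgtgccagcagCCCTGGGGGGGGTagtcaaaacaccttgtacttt
The bases in capitals numbered 16 in the largest TRBV13-1 clone and 2 in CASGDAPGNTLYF, whose CDR3 is otherwise read from the V and J ends.

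The V segments also left their mark at the start of the CDR3. The V end read from the receptors was tgtgccagcagtgatg for TRBV13-1, tgtgccagcggtgatgc for TRBV13-2 and tgtgccagcagtgat for TRBV13-3, which encode serine, glycine and serine at position 4 of the CDR3. Among distinct LNP-P20-mAb receptors 89.8% of TRBV13-1 and 85.4% of TRBV13-3 chains had serine there, and 97.9% of TRBV13-2 chains had glycine. Among LNP-Ctrl receptors these shares were 88.4%, 85.6% and 97.6%. The median CDR3 length was 14 residues for each segment under both treatments, and 86.5% to 94.4% of receptors had 12 to 16 residues.

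Counted against the consensus ends, TRBV13-2 receptors had fewer bases outside the V and J ends than receptors outside the family. A longer end can take up more bases. The V end read was 17 bases for TRBV13-2, 16 for TRBV13-1, 15 for TRBV13-3 and 12 to 17 outside the family. How far this moves the count was not tested. The mean over clonotypes was 9.65 ± 0.45 bases for TRBV13-2 and 10.2 ± 0.17 outside the family (SD, n = 6), lower in 6 of 6 libraries, with a mean difference of -0.507 bases (exact permutation p = 0.03125, adjusted p = 0.121). With LNP-P20-mAb 1 and 2 pooled it was -0.361 bases (exact permutation p = 0.0625, adjusted p = 0.211). For TRBV13-1 and TRBV13-3 the differences were -0.136 ± 0.253 and 0.0671 ± 0.763 bases (exact permutation p = 0.34375 and 0.8125). Mean CDR3 length, the share of TRBJ2 segments and the share of cells with a second alpha chain had no uniform direction over the 6 libraries for any of the 3 segments.

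TRBV13-2 cells also had fewer UMIs of the beta chain. The median per cell averaged 15 ± 2.37 for TRBV13-2 and 18.5 ± 3.39 outside the family (SD, n = 6), lower in 6 of 6 libraries (exact permutation p = 0.03125, adjusted p = 0.121; p = 0.0625 and adjusted p = 0.211 with LNP-P20-mAb 1 and 2 pooled). In clonotypes of 3 or more cells, the TRBV13-2 medians were 16.5, 15 and 16.5 in LNP-P20-mAb 1, 2 and 3, against 22, 24 and 19 outside the family, and 12, 11 and 30.5 in LNP-Ctrl 1, 2 and 3, against 26, 17 and 24. Among single-cell clonotypes alone, the TRBV13-2 medians were 20, 12 and 17.5 in LNP-P20-mAb 1, 2 and 3, against 14, 17 and 17 outside the family, and 18, 12 and 13 in LNP-Ctrl 1, 2 and 3, against 18, 13 and 14. There the direction was not uniform.

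**Figure D4:**
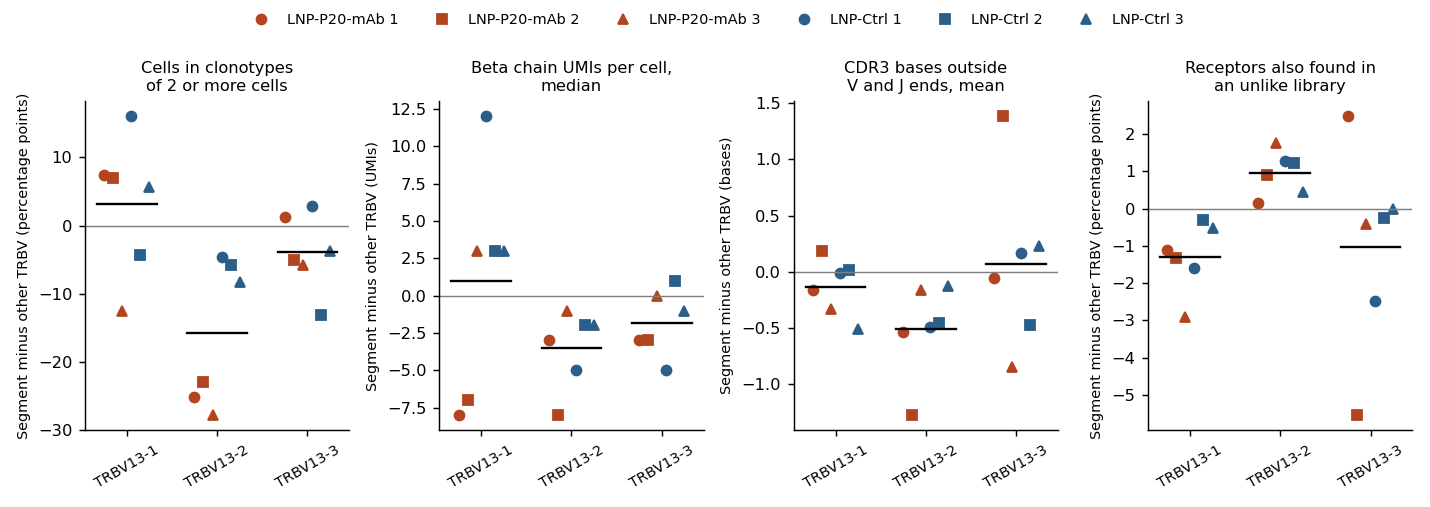
Differences between each Vbeta8 segment and the TRBV segments outside the family within each library (1 point per library, LNP-P20-mAb left of LNP-Ctrl, black line for the mean of 6) for 4 measures, each axis in the unit it names. For TRBV13-2 the 6 points lie below 0 in the first 3 panels and above 0 in the last.

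As shares of all clonotypes, 3 of 31 tested pairs of a Vbeta8 segment with a TRBJ segment differed between treatments. TRBJ segments come in a first and a second cluster, each behind its own D segment. A pair's share moves with that of its V segment, and the choice of J within a V segment was not tested by this fit. The fit over all 140 tested TRBV-TRBJ pairs called 12, or 8.57%, so the Vbeta8 pairs were called at a rate near that of all pairs (3 of 31). The median log2 difference was 0.01 over the Vbeta8 pairs and -0.00011 over all pairs. Of the 12 calls 5 were higher and 7 lower, and with TMM scaling there were 4 higher and 10 lower.

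TRBV13-2 joined to TRBJ1-4 was rare in LNP-P20-mAb libraries. It had 0, 1 and 1 clonotypes in LNP-P20-mAb 1, 2 and 3, against 19, 25 and 18 in LNP-Ctrl 1, 2 and 3. As a share of clonotypes this was 0.108% ± 0.129 and 0.797% ± 0.265, a ratio of 0.116 over the summed counts (exact counting interval 0.0137 to 0.437). The fitted log2 difference was -3.03 ± 0.74 (edgeR adjusted p = 0.00279). Every one of these clonotypes was a single cell, since the cell counts equal the clonotype counts in all 6 libraries.

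TRBV13-1 was higher in LNP-P20-mAb libraries with TRBJ2-7 and with TRBJ2-1. TRBV13-1 with TRBJ2-7 was found in 12, 16 and 27 clonotypes of LNP-P20-mAb 1, 2 and 3, against 11, 44 and 32 of LNP-Ctrl 1, 2 and 3, or 2.72% ± 1.12 and 0.991% ± 0.409 of clonotypes (log2 1.23 ± 0.33, edgeR adjusted p = 0.00564). TRBV13-1 with TRBJ2-1 was found in 10, 5 and 19, against 10, 19 and 26, or 1.48% ± 0.278 and 0.644% ± 0.106 (log2 1.15 ± 0.31, edgeR adjusted p = 0.00628). The uncalled pairs of TRBV13-1 with TRBJ1-1, TRBJ1-3 and TRBJ1-4 had log2 differences of 0.72, 0.85 and 0.80, beside 0.76 for the segment as a whole. Counted as cells, TRBV13-1 with TRBJ2-7 had a log2 difference of 3.15 and lost its call (edgeR adjusted p = 0.0751). TRBV13-1 with TRBJ2-1 turned to -0.21 on that scale, with the 91-cell clone of LNP-Ctrl 1 among its 100 cells there. The lowest p among the TRBV13-3 pairs was that with TRBJ2-7, at 0.48 ± 0.32 (edgeR adjusted p = 0.422).

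With LNP-P20-mAb 1 and 2 pooled the 3 calls stood, at -2.97 for TRBV13-2 with TRBJ1-4, 1.12 for TRBV13-1 with TRBJ2-7 and 1.14 for TRBV13-1 with TRBJ2-1 (edgeR adjusted p = 0.00597, 0.0331 and 0.0120). None of them stood in every alternative. DESeq2 called no pair (15 below an unadjusted p of 0.05), and gave adjusted p-values of 0.105 for TRBV13-2 with TRBJ1-4, 0.0906 for TRBV13-1 with TRBJ2-7 and 0.295 for TRBV13-1 with TRBJ2-1. Without LNP-P20-mAb 3 edgeR called no pair, and the edgeR adjusted p was 0.174 for TRBV13-2 with TRBJ1-4 (log2 -2.77), 0.149 for TRBV13-1 with TRBJ2-7 (1.5) and 0.174 for TRBV13-1 with TRBJ2-1 (1.24). TRBV13-1 with TRBJ2-7 was also not called without LNP-P20-mAb 2, LNP-Ctrl 1 or LNP-Ctrl 3 (edgeR adjusted p = 0.0771, 0.0578 and 0.213), and TRBV13-1 with TRBJ2-1 not without LNP-P20-mAb 1 (edgeR adjusted p = 0.0666).

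**Figure D5:**
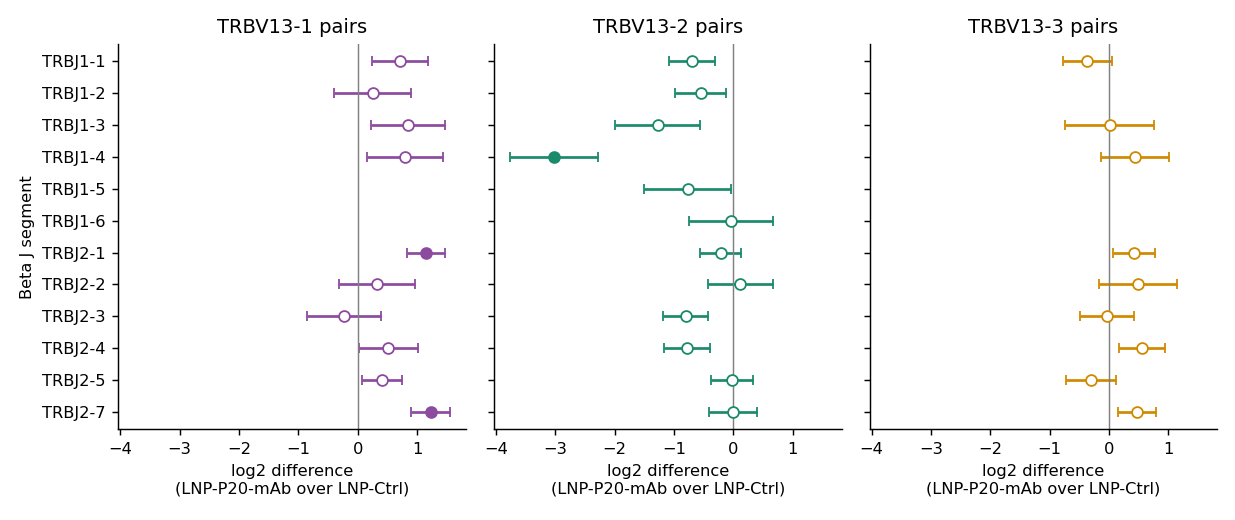
Log2 difference in the share of clonotypes, LNP-P20-mAb over LNP-Ctrl, for the 31 tested pairs of a Vbeta8 segment with a TRBJ segment, with bars for the SE and filled points for an edgeR adjusted p below 0.05. The filled points are TRBV13-1 with TRBJ2-1 (1.15) and TRBJ2-7 (1.23) and TRBV13-2 with TRBJ1-4 (-3.03).

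Over all TRBJ segments, TRBV13-2 clonotypes used the second cluster at 74.6%, 71.9% and 78.6% in LNP-P20-mAb 1, 2 and 3, against 63.3%, 71.4% and 64.9% in LNP-Ctrl 1, 2 and 3. The lowest LNP-P20-mAb value lay just above the highest LNP-Ctrl value (exact permutation p = 0.1, adjusted p = 0.375, and exact permutation p = 0.2 with LNP-P20-mAb 1 and 2 pooled). TRBV13-1 and TRBV13-3 used it at 70.1% ± 1.61 and 74.3% ± 7.12 under LNP-P20-mAb and at 68.3% ± 3.69 and 66.9% ± 5.83 under LNP-Ctrl (SD, n = 3 each), with overlap.

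Partner chains were compared within libraries between the clonotypes of each segment and those outside the family, over TRBJ, TRAV and TRAJ segments. Only TRBV13-2 had partners past the test. It called 2 of 128 segments, or 1.56%, both from the alpha chain of iNKT cells, which recognise lipids on CD1d. TRAV11 was used by 2.63% ± 0.79 of TRBV13-2 clonotypes and 0.344% ± 0.130 of those outside the family (SD, n = 6), higher in 6 of 6 libraries, with a log2 difference of 2.81 ± 0.42 (edgeR adjusted p = 3.12e-08). TRAJ18 was used by 4.09% ± 1.52 and 1.80% ± 0.44, also higher in 6 of 6 libraries (log2 1.27 ± 0.27, edgeR adjusted p = 1.96e-04). Both calls stood with LNP-P20-mAb 1 and 2 pooled, at 2.81 for TRAV11 and 1.28 for TRAJ18 (edgeR adjusted p = 1.14e-05 and 3.66e-04). With the cells that carry TRAV11 and TRAJ18 together left out, an alternative added after the data were seen, no partner was called, and TRAJ18 had a log2 difference of 0.38 ± 0.34. The lowest p of partners below the rest were those of TRAV12N-2 (log2 -1.31 ± 0.41, edgeR adjusted p = 0.0613) and TRAV13-1 (-0.89 ± 0.32, edgeR adjusted p = 0.150).

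Cells with an iNKT-type alpha chain numbered 56, of which 30 carried TRBV13-2, 4 TRBV13-1, 4 TRBV13-3 and 18 another TRBV. All 3 LNP-P20-mAb libraries held fewer of the TRBV13-2 kind, at 1, 1 and 3 cells, than the 7, 11 and 7 cells of LNP-Ctrl 1, 2 and 3. As a share of TRBV13-2 cells this was 0.80%, 1.41% and 2.00% in LNP-P20-mAb 1, 2 and 3, against 1.70%, 2.56% and 1.84% in LNP-Ctrl 1, 2 and 3, which overlapped. Each of the 56 cells was in a clonotype of its own size of 1 cell. The alpha chains are shown because their CDR3 was nearly fixed, at the same 15 residues in 50 of 56 cells but in 4 base sequences, the most frequent of which was in 19 cells.
TRAV11 and TRAJ18, 19 cells: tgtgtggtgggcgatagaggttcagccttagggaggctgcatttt
The beta chains around it were not, since the 30 TRBV13-2 cells used 10 TRBJ segments, led by TRBJ2-7 in 10 cells. The alpha chain of mucosal-associated invariant T (MAIT) cells, TRAV1 with TRAJ33, was in 17 cells, of which 4 carried TRBV13-2, 1 TRBV13-1 and 3 TRBV13-3. Leaving out the iNKT-type cells changed the log2 difference of TRBV13-2 between treatments to -0.41 ± 0.14 (edgeR adjusted p = 0.121), against the edgeR adjusted p = 0.106 with them.

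For TRBV13-1 and TRBV13-3 edgeR called 0 partners, or 0%, of 126 and 127 tested. Below an unadjusted p of 0.05 lay 5 and 10 segments, and DESeq2 called 0 for both. The partners of TRBV13-1 with the lowest p were TRAJ22, at 12.0% ± 7.16 of TRBV13-1 clonotypes and 5.64% ± 1.52 of those outside the family (higher in 5 of 6 libraries, edgeR adjusted p = 0.392), and TRAJ31, at 7.51% ± 2.79 and 3.83% ± 1.17 (6 of 6 libraries, edgeR adjusted p = 0.392). TRAJ22 was used by 23.1% and 19% of TRBV13-1 clonotypes in LNP-P20-mAb 1 and 2, but by 6.14% to 8.77% in the other 4 libraries, and its log2 difference was 0.35 without LNP-P20-mAb 1, against 0.58 with it. Below the rest were TRAV6N-6, in 3 of 674 TRBV13-1 clonotypes and 127 of 8093 outside the family, and TRAV3-1, in 0 of 674, which allows up to 0.445%, and 45 of 8093. For TRBV13-3 they were TRAJ15, at 6.30% ± 2.70 and 2.70% ± 0.57 (6 of 6 libraries, edgeR adjusted p = 0.487), and TRAV8D-1, in 8 of 682 and 36 of 8093 clonotypes. Below the rest were TRAV9-2, in 5 of 682 and 165 of 8093, and TRAV17, in 0 of 682, which allows up to 0.440%, and 49 of 8093. TRAV names with D or N mark near-identical copies, between which reads could be split, so counts of single copies are uncertain.

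Receptors found in unlike libraries, that is in more than 1 library with LNP-P20-mAb 1 and 2 taken as 1 source, were most frequent for TRBV13-2. Compared by V segment and CDR3 amino acids, 21 of 1119 TRBV13-2 receptors, 6 of 644 TRBV13-1 receptors, 7 of 659 TRBV13-3 receptors and 105 of 7826 receptors outside the family were such. Per library, 5.11% ± 2.38 of TRBV13-2 receptors were also found in an unlike library, against 4.15% ± 2.39 outside the family, higher in 6 of 6 libraries. For TRBV13-1 it was 2.86% ± 2.34, lower in 6 of 6 libraries (exact permutation p = 0.03125 and adjusted p = 0.121 for each segment; p = 0.0625 and adjusted p = 0.211 with LNP-P20-mAb 1 and 2 pooled). For TRBV13-3 it was 3.11% ± 2.32, lower in 5 of 6 (exact permutation p = 0.3125). The per-library shares rise where other libraries offer more receptors to match. A match needs the same V segment, so they also rise with the number of receptors of a segment, which was highest for TRBV13-2 among the 3 members. How far this moves the comparison of segments was not tested. The difference for TRBV13-2 was 0.957 percentage points, -0.0983 without LNP-Ctrl 1 and 0.25 without LNP-Ctrl 3. That for TRBV13-1 was -1.29, -0.0362 without LNP-P20-mAb 3, -0.535 without LNP-Ctrl 1 and -2.18 without LNP-Ctrl 3.

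Counting every library, 5 Vbeta8 receptors were found in 3 or more. With LNP-P20-mAb 1 and 2 as 1 source only 2 of them reached 3 sources, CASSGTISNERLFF and the TRBV13-2 receptor of 15 residues. TRBV13-3 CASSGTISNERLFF was in 4, with 4, 3 and 11 cells for LNP-P20-mAb 1, 2 and 3 and 1 cell for LNP-Ctrl 3, always from the same bases and with TRAV12N-2, joined to TRAJ18 or TRAJ22. TRBV13-2 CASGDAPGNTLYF, the clone of 26 and 20 cells in LNP-P20-mAb 1 and 2, was also in 1 paired cell of LNP-Ctrl 1, from other bases and another J segment (TRBJ2-4 in place of TRBJ1-3) but again with TRAV7D-2 and TRAJ26. TRBV13-1 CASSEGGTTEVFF had 7 and 4 cells for LNP-P20-mAb 1 and 2 and 2 cells for LNP-Ctrl 2, with TRAV10N or TRAV10 and TRAJ22. TRBV13-1 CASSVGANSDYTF had 1 cell each in LNP-P20-mAb 1, LNP-P20-mAb 2 and LNP-Ctrl 3, with TRAV10D and TRAJ31 or TRAV12-1 and TRAJ23. A TRBV13-2 receptor of 15 residues had 1 cell in LNP-P20-mAb 2, 2 in LNP-Ctrl 2 and 1 in LNP-Ctrl 3, each from bases of its own, with 4 different TRAV14 family members. The bases show how alike proteins came from unlike joints, with capitals again outside the V and J ends.
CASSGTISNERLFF: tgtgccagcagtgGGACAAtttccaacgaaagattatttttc
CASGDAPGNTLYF, large clone: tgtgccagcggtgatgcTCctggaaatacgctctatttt
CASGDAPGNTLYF, single cell: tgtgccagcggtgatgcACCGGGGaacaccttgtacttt
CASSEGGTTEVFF: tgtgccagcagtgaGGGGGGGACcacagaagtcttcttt
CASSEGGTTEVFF, other bases: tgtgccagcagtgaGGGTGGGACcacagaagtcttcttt
TRBV13-2 of 15 residues: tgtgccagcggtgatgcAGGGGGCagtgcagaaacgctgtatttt
TRBV13-2 of 15 residues: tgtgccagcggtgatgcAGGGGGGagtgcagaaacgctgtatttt
TRBV13-2 of 15 residues: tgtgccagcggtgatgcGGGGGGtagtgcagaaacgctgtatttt
TRBV13-2 of 15 residues: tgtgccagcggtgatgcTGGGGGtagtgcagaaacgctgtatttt

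Among the 16 Vbeta8 clones of 20 or more cells, with clones that LNP-P20-mAb 1 and 2 share counted once, some from unlike libraries also had the same alpha segments. Of their 78 pairs from unlike libraries, 3, or 3.85%, shared TRAV and TRAJ. Among Vbeta8 clonotypes of 2 to 19 cells it was 16 of 11864 pairs, or 0.135%, and among single-cell clonotypes 2093 of 1982215, or 0.106%. These pairs were noticed in the data and are described without a test. TRAV7-4 with TRAJ33 was in the TRBV13-3 and TRBJ2-4 clones of 43 and 26 cells of LNP-P20-mAb 1 and 2 and of 71 cells of LNP-Ctrl 1, whose alpha CDR3 differed in 1 of 15 residues and whose beta CDR3 differed in 2 of 15. TRAV6-7-DV9 with TRAJ42 was in the TRBV13-3 clone of 50 cells of LNP-P20-mAb 3 and in a TRBV13-1 clone of 29 cells in LNP-P20-mAb 1, both with TRBJ2-4 and with alpha CDR3 1 residue apart. TRAV3N-3 with TRAJ15 was in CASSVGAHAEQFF, the clone shared by LNP-P20-mAb 1 and 2 (91 and 40 cells), and in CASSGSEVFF of TRBV13-3, at 25 cells in LNP-Ctrl 1, with alpha CDR3 of 13 and 11 residues. The alpha CDR3 of the first 2 pairs are shown with capitals where the members of a pair differ.
TRAV7-4, LNP-P20-mAb 1: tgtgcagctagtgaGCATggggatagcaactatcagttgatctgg
TRAV7-4, LNP-Ctrl 1: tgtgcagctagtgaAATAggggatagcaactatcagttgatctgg
TRAV6-7-DV9, LNP-P20-mAb 1: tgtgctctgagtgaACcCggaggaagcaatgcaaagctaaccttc
TRAV6-7-DV9, LNP-P20-mAb 3: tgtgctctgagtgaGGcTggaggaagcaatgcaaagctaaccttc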

How the data were processed

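Per the labels' protocols, sorted CD45+ cells were run on the Chromium 5′ chemistry with TCR enrichment, and Cell Ranger 8.0.1 is listed per the submitters' processing notes. The authors deposited assembled TCR chains with raw counts of reads and UMIs per chain. Several mouse builds are listed with no statement of their use, and coordinates are left out. Chain and cell calling were the authors', and chains dropped before deposit leave no trace. Samples of gene expression were not used here.

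Barcodes with 1 TRB and 1 or 2 TRA chains were used, and the rest were left out. This removed 211 to 535 barcodes with 2 TRB chains per library. They may be doublets, and no doublet caller was run. Germline ends of V and J in the CDR3 were read base by base. A base was added where a share above 0.6 of the receptors that carried the end so far, 20 or more, had it. The whole V end was in 19.0% to 33.1% of the distinct receptors of a Vbeta8 segment and treatment. Counts of clonotypes per segment, for segments with 30 or more, were fitted with edgeR 4.0.16 (quasi-likelihood, R 4.3.3) with the clonotypes of a library as its size and Benjamini-Hochberg adjustment over all segments, threshold 0.05. The SE was taken as the log2 difference over the root of F. DESeq2 1.42.0 was an alternative. Thinned shares are means of 200 draws of 2016 cells. Exact permutation tests were two-sided. The edgeR fits were tried on simulated counts drawn independently for each library, without shared clones. Exact tests were checked on made-up numbers. The other steps ran in Python 3.11.15 (pandas 2.3.3, scipy 1.17.1), and segment order and names came from RefSeq (GRCm38.p6). The members, lists and tests were chosen with earlier results of these data known.

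Always named were the 3 segments and the joint name. Other names follow a rule: partners past the threshold, or else those with the 2 lowest p per direction, called Vbeta8 V-J pairs and the lowest p of each segment, the largest clone of each segment and library, clones of 50 or more cells, receptors in 3 or more libraries, and TRBV12-1, TRBV12-2, TRBV1 and TRBV29. Clones of 20 to 49 cells with a recurrent alpha chain were named after their values were seen.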

Additional observations from a re-analysis of the deposited data

Results flagged for a closer look

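Barcodes with 2 TRB chains are outside every comparison, and in LNP-P20-mAb 3 they held a large TRBV13-1 clone. There 46 barcodes carried TRBV13-1 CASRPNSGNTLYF together with a TRBV12-1 chain of 16 residues, and all 46 had the same alpha chain, TRAV6N-6 with TRAJ37. All 46 barcodes of the LNP-P20-mAb libraries with this pair of beta chains were from LNP-P20-mAb 3, and the LNP-Ctrl libraries had 0. The median was 29 UMIs for the TRBV13-1 chain and 11 for the TRBV12-1 chain. On barcodes with 1 TRB chain in LNP-P20-mAb 3, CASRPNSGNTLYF was in 6 cells and the TRBV12-1 chain in 0. With such barcodes kept, the largest TRBV13-1 clone of that library had 53 cells in place of 17, and TRBV13-1 made up 6.91% of its chains.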

How the results depend on the processing

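Of the fits, usage by treatment called 7 segments, 2 with DESeq2, 0 with cells in place of clonotypes (43 below an unadjusted p of 0.05), 2 with barcodes of 2 TRB chains kept, and 2 to 10 with 1 library left out. The log2 difference of TRBV13-1 lost its call at 0.88 with DESeq2, 1.09 with cells, 0.74 with 2-TRB barcodes kept and 0.67 with LNP-P20-mAb 1 and 2 pooled, and was 0.53 to 0.95 with 1 library left out. Usage by expansion called 2 segments, all higher, but 5 (1 higher, 4 lower) with TMM scaling, 5 with DESeq2, 6 with 2-TRB barcodes kept, and 0 to 3 with 1 library left out. Its TRBV13-1 estimate passed at 0.65 (expanded from 2 cells) and 0.75 (joint name as its own segment), and was 0.60 to 0.86 with 1 library left out. Its TRBV13-2 estimate passed at -0.80 (TMM), -0.85 (DESeq2) and -0.94 (2-TRB barcodes kept), and TRBV13-3 turned to -0.10 (TMM) and -0.15 (DESeq2). TMM scaling moved the median log2 of all segments in this fit from -0.19 to -0.46, and those of the partner fits from between -0.05 and -0.01 to between -0.24 and -0.16. V-J pairs had 12 calls, 0 with DESeq2 and 0 to 14 with 1 library left out, where fewer pairs were tested. Counted as cells, TRBV13-1 with TRBJ2-1 turned to -0.21 and TRBV13-3 with TRBJ2-7 to -0.90. Partners of TRBV13-2 had 0 calls with chains named TRBV13-2 alone (137 cells) and without iNKT-type cells, where TRAV11 was not tested. With that single name the TRBV13-2 differences from other TRBV turned to -10.3 points for TRBJ2 share and -4.15 for shared receptors, and its differences between treatments were -0.848 points of cells and -5.23 of TRBJ2 share. The large-clone difference of TRBV13-1 turned to 1.33 points with 2-TRB barcodes kept. Differences in shared receptors with 1 library left out, where fewer libraries are left to match, were -2.18 to -0.0362 points for TRBV13-1 and -0.0983 to 1.43 for TRBV13-2. In tests too small to pass a threshold, the sign changed in 12 values of 6 results between treatments and in 12 of 8 within libraries. The cause of these changes was otherwise not tested.

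Replicate numbers are shared by the treatments. Correlations of deviations between same-numbered libraries were -0.051, -0.16 and -0.072. With 3 libraries per treatment these cannot decide whether the numbers pair the libraries. With the replicate block, usage by treatment called 10 segments, TRBV13-2 among them (log2 -0.40, edgeR adjusted p = 0.0161). Exact tests of single values between treatments then had p = 0.25 or more. LNP-P20-mAb 1 and 2 held 558 and 399 clonotypes, which limits the precision of rare pairs.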

Other observations

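A Vbeta8 chain was on 11.6%, 9.00% and 24.5% of the barcodes with 2 TRB chains in LNP-P20-mAb 1, 2 and 3, against 23.1%, 36.1% and 37.1% in LNP-Ctrl 1, 2 and 3. Both chains were of the family on 48, 11 and 7 of these barcodes in the LNP-P20-mAb libraries, and on 12, 17 and 7 in the LNP-Ctrl libraries, in the order of their numbers. In LNP-P20-mAb 1 the 2 most frequent TRBV13-1 clones met on 13 barcodes, all with the alpha chain of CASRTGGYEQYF (TRAV10N and TRAJ31), at a median of 26 UMIs for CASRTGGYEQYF and 4 for the beta chain of the 253-cell clone. That beta chain also lay at a median of 4.5 UMIs on 6 barcodes beside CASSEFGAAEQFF, at 22.5.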
